A study of Mus musculus with 32 samples.

Results

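The receptors and transcription factors that sense bile acids and set their synthesis were examined here as 9 genes of mouse liver: Nr1h4 (encoding FXR), Nr0b2 (SHP), Fgfr4, Klb (beta-klotho), Nr5a2 (LRH-1), Hnf4a, Rxra, Mafg and Gpbar1 (TGR5). They were taken by name from a table of 54532 genes, and all 9 were found. Read counts came from the livers of 32 C57BL/6 mice in 8 groups of 4, female or male, wild type (WT) or Cyp2c70 knockout (KO), fed chow or chow with SC-435. The KO mice carry a CRISPR-made deletion of exon 2 of Cyp2c70 in the whole animal, bred from 1 founder, and all mice were 12 weeks old and not fasted. SC-435, an inhibitor of the bile acid transporter of the ileum (IBAT), was mixed into chow at 0.006%, about 11 mg/kg/day. The sample records place its start 3 weeks after weaning, while the paper describes feeding from weaning to 12 weeks of age. Mice on chow and on SC-435 were different animals. Cyp2c70 is the enzyme that makes muricholic acids in mice, so its loss leaves a more hydrophobic bile acid pool, and IBAT inhibition lowers the return of bile acids from gut to liver.

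The liver adjusts bile acid synthesis through a pair of feedback loops. In hepatocytes bile acids bind FXR, which pairs with RXRA on DNA and raises SHP, a receptor-like protein with no DNA-binding domain that holds back LRH-1 and HNF4A, activators of the synthesis genes Cyp7a1 and Cyp8b1. In the ileum FXR raises FGF15, a hormone that acts on the liver through FGFR4 and its co-receptor beta-klotho to lower Cyp7a1. MAFG is a small MAF protein that FXR can raise and that represses Cyp8b1, and TGR5 is a cell-surface bile acid receptor found mainly in cholangiocytes and macrophages rather than in hepatocytes.

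The promoters of SHP, FXR and beta-klotho are shown because these 3 genes carry most of the differences described here. Each is the 250 bases before a RefSeq start site on build GRCm38.p6, read in the direction of the gene, with matches in capitals. The windows are chr4:133553126-133553375 (plus strand) for Nr0b2, chr10:89506659-89506908 (minus strand) for Nr1h4 and chr5:65348161-65348410 (plus strand) for Klb. The Nr1h4 window precedes a start site inside the gene as the table draws it.
Nr0b2: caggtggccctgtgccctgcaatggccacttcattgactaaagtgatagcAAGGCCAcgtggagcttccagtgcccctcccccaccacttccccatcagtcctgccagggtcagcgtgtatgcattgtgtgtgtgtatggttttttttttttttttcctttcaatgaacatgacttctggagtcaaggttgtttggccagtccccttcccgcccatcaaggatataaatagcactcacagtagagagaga
Nr1h4: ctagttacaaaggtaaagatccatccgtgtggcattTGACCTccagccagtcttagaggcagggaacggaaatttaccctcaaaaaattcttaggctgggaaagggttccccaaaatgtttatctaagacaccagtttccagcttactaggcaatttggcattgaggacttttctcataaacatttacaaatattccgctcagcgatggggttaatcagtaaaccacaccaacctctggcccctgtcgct
Klb: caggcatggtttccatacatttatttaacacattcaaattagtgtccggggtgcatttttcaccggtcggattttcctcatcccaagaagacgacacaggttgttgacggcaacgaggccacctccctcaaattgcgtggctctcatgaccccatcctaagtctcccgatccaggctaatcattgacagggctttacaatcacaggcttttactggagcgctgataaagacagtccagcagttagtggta
Both strands were searched for the nuclear receptor half-site AGGTCA, for the LRH-1 core AAGGNCA, which overlaps the half-site in part, for the half-site repeated 1 base apart in the same direction (AGGTCANAGGTCA) or inverted (AGGTCANTGACCT), and for the small MAF half-site TGCTGA. The Nr0b2 window held 1 LRH-1 core, AAGGCCA, starting at position -200, and the Nr1h4 window held 1 half-site on the other strand, TGACCT, at position -214. The Klb window held none of the 5 motifs. Among 32817 such windows, 14% held the half-site, 17.5% the LRH-1 core, 16.1% the small MAF half-site, 0.0335% the direct repeat and 0.00609% the inverted repeat. Over 12 windows of the 9 genes, the half-site was also found in windows of Nr5a2 and Rxra and the LRH-1 core in windows of Rxra and Mafg. These matches describe the letters and name no binding site.

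Sequencing depth lay between 36476021 and 44771350 counts per mouse. Cyp2c70 itself was 710 ± 107 CPM (counts after scaling for library size, mean ± SD, n = 4) in female WT mice on chow and 163 ± 14.0 in female KO mice, and 621 ± 98.0 against 172 ± 15.3 in males, so part of the reads remained, and a gene-level count does not show from which exons they came. Male WT mouse 1 on chow stood apart from its group: its TMM scaling factor was 0.639, against 0.955 to 1.01 in the other 3 mice, and its mean correlation with them was 0.920, against 0.967 to 0.969. It was the highest of its group for Nr0b2, Fgfr4, Hnf4a and Rxra and the lowest for Nr1h4, Klb, Nr5a2 and Mafg. For these genes, where leaving it out changed a call or moved a printed fold change by over 1.5 times, the value without it is given. Hepatocyte markers were abundant in every group, with group means of their sum between 83170 and 129100 CPM.

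Read per kilobase of gene, Hnf4a was the most abundant of the 9 genes at 155 CPM per kb over all 32 mice, followed by Rxra at 106, Nr1h4 at 45.8 and Nr0b2 at 33.4. Mafg (19.4), Fgfr4 (19), Nr5a2 (11.5) and Klb (9.39) were lower, and Gpbar1 was close to absent at 0.0276 CPM per kb. Across the 8 group means SHP varied most, by 4.29-fold, from 15.3 CPM in male KO mice on SC-435 to 65.5 CPM in female WT mice on chow. Klb varied by 2.25-fold, and the other 6 expressed genes by 1.19-fold (Mafg) to 1.79-fold (Nr1h4). SHP also varied most between mice of 1 group: the median of its coefficient of variation over the groups was 47.3%, above that of 98.5% of 12677 genes averaging 50 counts or more, while for Nr1h4 it was 9.2%, below the median gene at 11.9%.

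**Figure D1:**
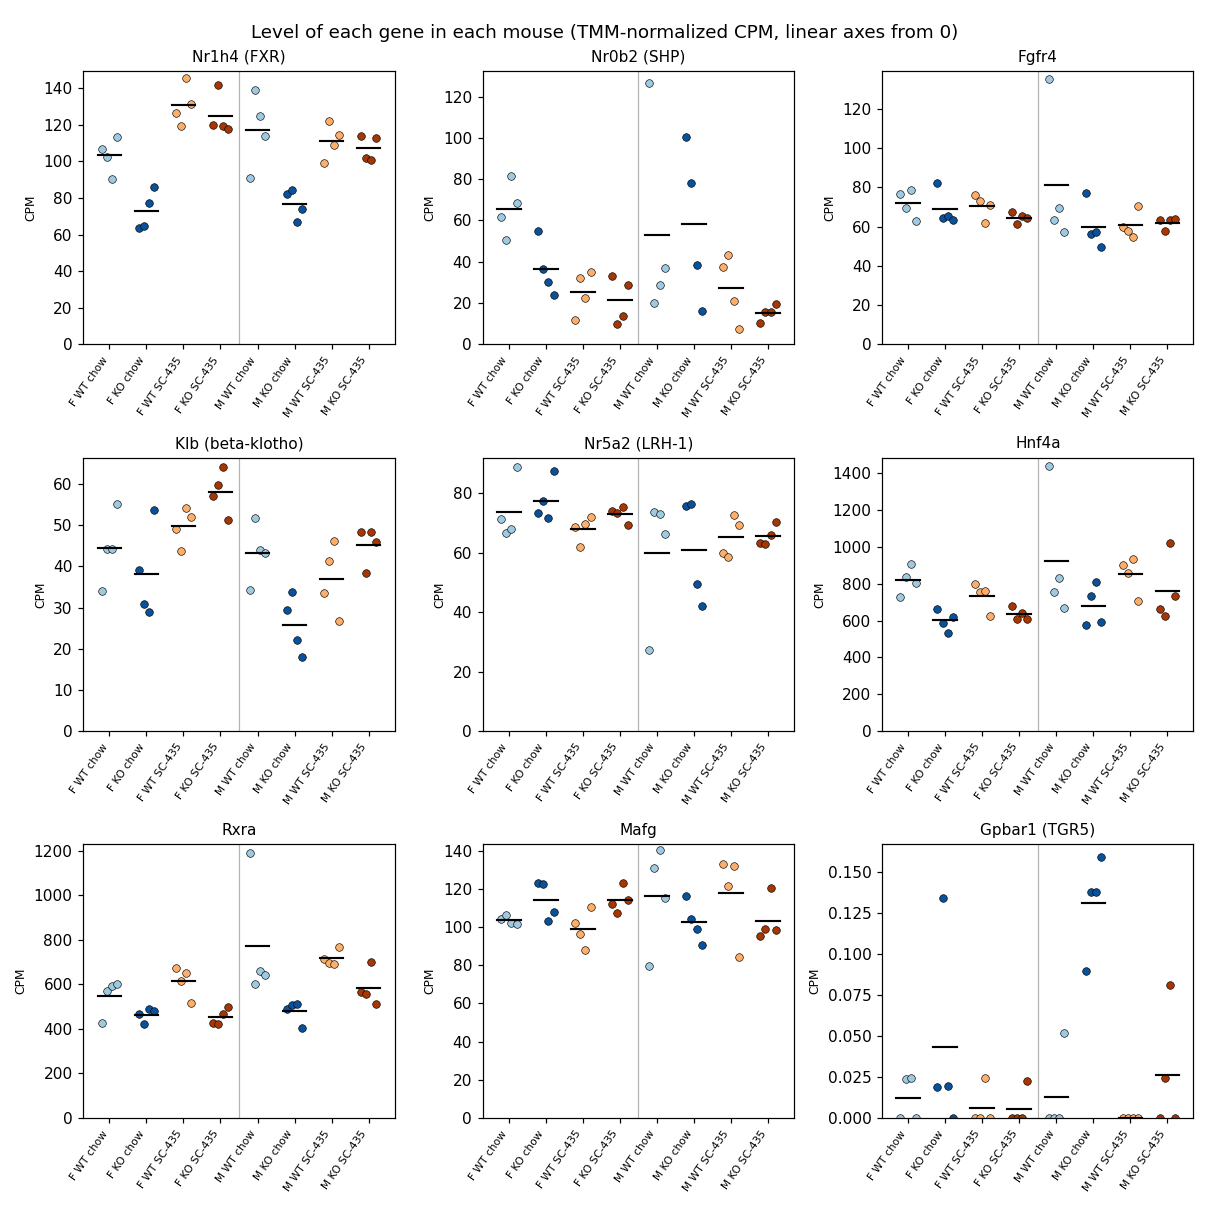
Level of each of the 9 genes in each of 32 mice, in TMM-normalized CPM on linear axes from 0, with 1 dot per mouse, a bar at each group mean and a line between females (F) and males (M). Nr1h4 was lowest in the KO mice on chow of both sexes (means 73.0 and 76.9 CPM), Nr0b2 was spread widely on chow, and male WT mouse 1 on chow sits far from its group for Nr0b2, Fgfr4, Hnf4a and Rxra.

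FXR was lower in chow-fed KO than WT females and higher in KO mice of both sexes when SC-435 was given. Nr1h4 (chromosome 10, 89454234 to 89533585, minus strand, 10 exons in its longest coding transcript) measured 106.7, 102, 90.6 and 114 CPM in the 4 female WT mice on chow and 63.9, 64.9, 77.2 and 85.9 CPM in the female KO mice. Every KO mouse was below every WT mouse. The log2 fold change was -0.48 (SE 0.12, 95% interval -0.75 to -0.22, adjusted p = 0.0243, edgeR quasi-likelihood test over all genes), a level 0.717 times that of WT. In whole liver, fewer cells of a type and less RNA per cell cannot be told apart. In this comparison 3 of the 8 tested genes passed at an adjusted p under 0.05, all of them lower in KO mice (Nr1h4, Nr0b2 and Hnf4a), beside 14.9% of all genes tested and 5.05% that passed as lower. The groups did not overlap for 2 of the 8, beside 21.6% of all genes. None of the 8 passed with a log2 fold change beyond 1, the size the study required, beside 6.68% of all genes. The FXR call was lost without WT mouse 2 or 4 or KO mouse 1 or 2, with adjusted p of 0.0578, 0.0617, 0.0665 and 0.0926, and its log2 fold change then stayed between -0.49 and -0.41. It was also lost on library totals alone (-0.30, adjusted p = 0.106), a scaling that moved the median of all genes in this comparison from -0.02 to 0.17.

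In female KO mice on SC-435, Nr1h4 was 119.9, 142, 119 and 118 CPM, against the 63.9 to 85.9 CPM of the female KO mice on chow. The groups did not overlap, and the log2 fold change was 0.76 (SE 0.11, 95% interval 0.51 to 1.0, adjusted p = 0.00319), or 1.69-fold higher. This call held under all 8 other settings tried and without each of the 8 mice in turn (adjusted p between 0.000299 and 0.0153). Klb was the other gene to pass as higher here, so 2 of 8 tested genes passed, beside 17.8% of all genes and 8.56% that passed as higher. The chow-fed KO mice stand in both comparisons, so a fall in one and a rise in the other are not separate observations. Female WT mice on SC-435 had 127, 119.6, 145 and 131 CPM, all above the WT mice on chow, with a log2 fold change of 0.35 (SE 0.09) that did not pass (adjusted p = 0.0699), while it passed with DESeq2 and with voom. Against WT females on chow, the KO females on SC-435 differed by 0.28 (SE 0.10, adjusted p = 0.0721), again without overlap, and passed with DESeq2 (0.0433) and voom (0.0225).

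Male KO mice also had less FXR on chow than on SC-435. Nr1h4 was 91.0, 139, 125 and 114 CPM in male WT mice on chow and 82.3, 84.3, 67.0 and 73.7 CPM in male KO mice on chow. No KO mouse reached the lowest WT mouse, which was mouse 1, yet the log2 fold change of -0.57 (SE 0.18) did not pass (adjusted p = 0.173). Without male WT mouse 1 it was -0.68 with an adjusted p of 0.0151, and it also passed with DESeq2 (adjusted p = 0.0143), in a fit of the 4 male groups together (0.0158) and with voom (0.00199). With SC-435 the male KO mice had 114, 102, 101 and 113 CPM, all above the male KO mice on chow. SC-435 gave a log2 fold change of 0.45 (SE 0.09, 95% interval 0.25 to 0.65, adjusted p = 0.0127), or 1.37-fold higher, and it held without each of the 8 mice (adjusted p between 0.0142 and 0.0464). It was lost in the fit of all 4 male groups (0.059) and on library totals alone (0.0715). Male KO mice passed for 3 of 8 genes on SC-435 (Nr1h4, Klb and Nr0b2), beside 17.2% of all genes, and the groups did not overlap for 3 of 8 (Nr1h4, Klb and Rxra), beside 26.1%.

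Across the 8 group means, FXR ran from 131 CPM in female WT mice on SC-435 down to 103 CPM in female WT mice on chow with overlap between each pair of neighbours. The male KO mice on chow (76.9 CPM) then lay below the range of that last group, and overlapped with the female KO mice on chow (73.0 CPM). In the chow-fed KO livers markers of some other cell types were higher. The summed level of 16 cholangiocyte markers ran from 177 to 375 CPM in female KO mice and from 66.1 to 108 CPM in female WT mice, and in males from 188 to 1233 CPM against 54.3 to 64.8 CPM. Of 14 tested cholangiocyte markers in females 10 passed as higher in KO and none as lower, as did 15 of 18 macrophage markers. In males 5 of 14 cholangiocyte and 2 of 18 macrophage markers passed as higher and none as lower. No sinusoidal endothelial marker passed as higher in either sex, and 1 of 12 passed as lower in females. The endothelial sum in males was 380 to 489 CPM in KO and 550 to 648 CPM in WT mice on chow. With SC-435 the cholangiocyte sum was 141 to 198 CPM in female and 78.0 to 90.3 CPM in male KO mice. The summed hepatocyte markers were 72840 to 96530 CPM in female KO mice on chow and 112200 to 138100 CPM in WT females, and 5 of 13 passed as lower and 1 as higher. In males on chow the sum was 62980 to 101300 CPM in KO and 96930 to 211400 CPM in WT mice, and 0 of 13 passed. WT males on SC-435 had 73980 to 93560 CPM, within the range of the KO males on chow. No marker of these lists was at 0 in every mouse of a chow-fed group. The part of these cell types in the member results was not tested.

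**Figure D2:**
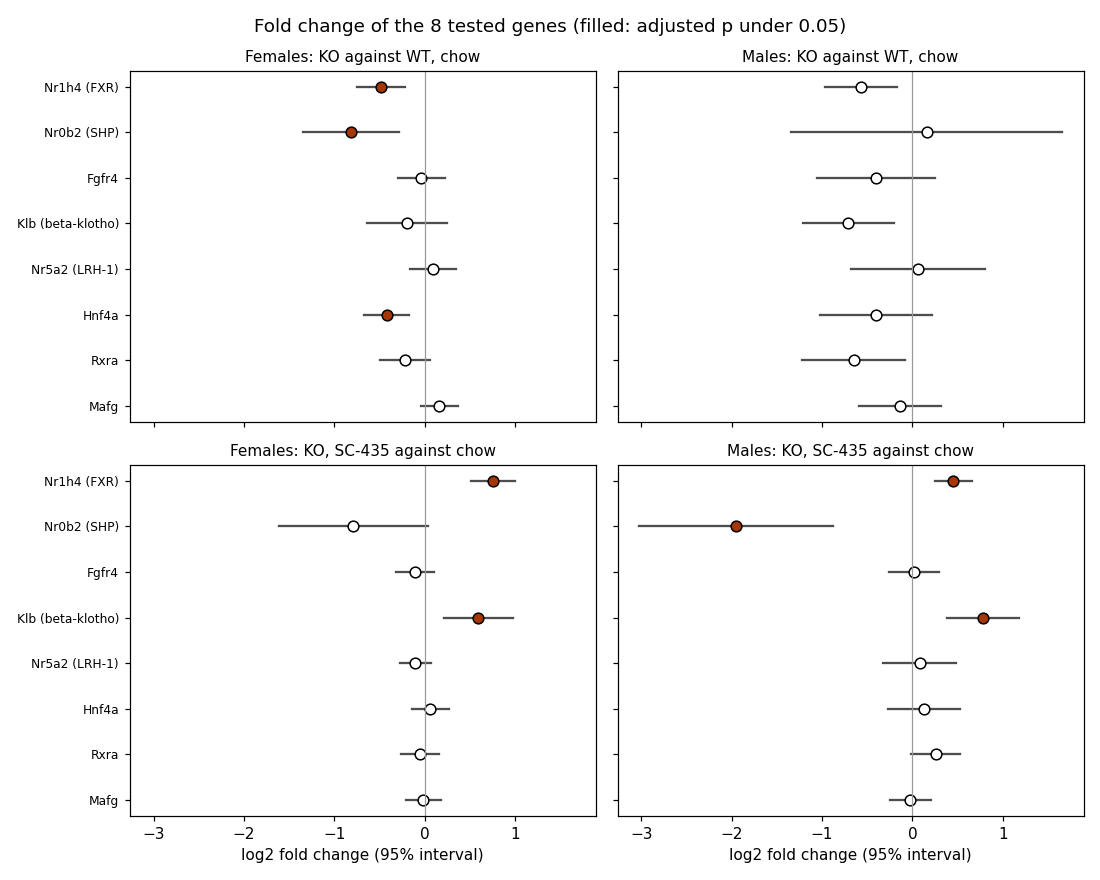
Log2 fold change of the 8 tested genes in the 4 main comparisons, with 95% intervals from the edgeR fits (horizontal axis; above 0 is higher in KO mice in the upper panels and higher on SC-435 in the lower panels). Filled dots passed at an adjusted p under 0.05: Nr1h4, Nr0b2 and Hnf4a were lower in female KO mice, Nr1h4 and Klb were higher with SC-435 in KO mice of both sexes, and Nr0b2 was lower with SC-435 in male KO mice.

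RXRA, the partner of FXR and of many other nuclear receptors, differed by genotype in females on SC-435. Rxra (chromosome 2, 27676440 to 27762957, plus strand) was 675, 613, 649 and 516 CPM in female WT mice on SC-435 and 426, 421, 467 and 497 CPM in female KO mice on SC-435. All KO mice were below all WT mice, and the log2 fold change was -0.43 (SE 0.09, 95% interval -0.64 to -0.23, adjusted p = 0.0176). Rxra was the only 1 of 8 tested genes to pass there, beside 10.9% of all genes. The call was lost without WT mouse 1 (adjusted p = 0.0502) and without KO mouse 1 or 2 (0.0515 and 0.0591). On chow the genotypes of females overlapped, with a log2 fold change of -0.21 (SE 0.12, adjusted p = 0.277) that passed with voom (-0.31, 0.0451). Male KO mice on chow had 491, 507, 509.6 and 405 CPM, all below the male WT mice with 1188, 603, 661 and 639.7 CPM, but the log2 fold change of -0.65 (SE 0.25) did not pass (adjusted p = 0.263). Without male WT mouse 1, by far the highest, it was -0.37 and did not pass (0.0772), while it passed in the fit of the 4 male groups (0.0459) and with voom (0.0264). Female WT mice on chow (428 to 600.0 CPM) were all below the male WT mice on chow, a difference of -0.53 (SE 0.26) that did not pass either (adjusted p = 0.524) and was -0.23 without male WT mouse 1.

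SHP was lower in chow-fed KO than WT females, and lower on SC-435 in WT females and KO males. Nr0b2 (chromosome 4, 133553376 to 133556536, plus strand, 2 exons) was 61.7, 50.5, 81.3 and 68.4 CPM in female WT mice on chow and 54.9, 36.7, 30.4 and 23.9 CPM in female KO mice on chow. KO mouse 1 lay above WT mouse 2, so the groups overlapped by that pair. KO differed from WT by a log2 fold change of -0.82 (SE 0.24, 95% interval -1.35 to -0.29, adjusted p = 0.0448), or 0.567 times the WT level. It passed narrowly: it was lost without WT mouse 1, 3 or 4 (adjusted p 0.0747, 0.111 and 0.0856) and without KO mouse 2, 3 or 4 (0.121, 0.13 and 0.0626), in a fit of the 4 female groups (0.126), on library totals alone (-0.61, 0.12), with only genes averaging 50 counts or more (0.0591) and with a replicate block (0.0682).

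With SC-435, SHP in female WT mice was 11.6, 32.3, 22.3 and 35.2 CPM, all below the WT mice on chow. The log2 fold change was -1.36 (SE 0.30, 95% interval -2.02 to -0.70, adjusted p = 0.0345), or 0.390 times the chow level, and beyond 1 on the log2 scale, beside 1.10% of all genes. SHP was the 1 of 8 genes to pass in that comparison, beside 4.28% of all genes. It held under the other 8 settings, but without any 1 WT mouse on chow (adjusted p 0.0545, 0.0576, 0.0857 and 0.0647 for mice 1 to 4) or without SC-435 mouse 2, 3 or 4 (0.0569, 0.103 and 0.0561) it no longer passed, while the log2 fold change stayed between -1.56 and -1.12. Female KO mice on SC-435 had 33.0, 9.94, 13.9 and 28.7 CPM and overlapped with the KO mice on chow, with a log2 fold change of -0.79 (SE 0.37) that did not pass (adjusted p = 0.165). Set against WT females on chow they were lower without overlap, by -1.60 (SE 0.32, 95% interval -2.32 to -0.89, adjusted p = 0.00789), or 0.329 times the level. That call held under all 8 settings and without each mouse in turn (adjusted p between 0.00647 and 0.0288). With Hnf4a, 2 of 8 genes passed in that comparison, beside 16.0% of all genes.

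In males the spread of SHP on chow was wide in both genotypes. Nr0b2 was 127, 20.2, 28.6 and 37.0 CPM in male WT mice on chow and 101, 78.0, 38.3 and 16.2 CPM in male KO mice on chow. These groups overlapped over nearly their whole range. The log2 fold change of 0.16 (SE 0.67, 95% interval -1.34 to 1.66) had no settled direction: it was negative without WT mouse 2 (-0.11) or 3 (-0.05) or KO mouse 1 (-0.23) or 2 (-0.01), 1.05 without WT mouse 1 (adjusted p = 0.247), and 1.29 (adjusted p = 0.0317) with voom and a quality weight per library. Male KO mice on SC-435 were low and close together at 10.5, 15.6, 15.5 and 19.5 CPM. Against male KO mice on chow the log2 fold change was -1.95 (SE 0.48, 95% interval -3.03 to -0.88, adjusted p = 0.0258), or 0.258 times the level, with overlap by KO mouse 4 on chow alone. The call was lost without SC-435 mouse 1, 2, 3 or 4 (adjusted p 0.0785, 0.0591, 0.0681 and 0.0622), in a fit of the 4 male groups (0.0784) and with a replicate block (0.0868), while it held without each of the chow mice. Male WT mice on SC-435 had 37.6, 43.1, 21.0 and 7.40 CPM, a log2 fold change of -1.0 (SE 0.68, adjusted p = 0.836) from WT chow that rested on male WT mouse 1: it was -0.07 without that mouse and 0.19 with voom. Against male WT mice on chow, the KO males on SC-435 were lower without overlap by -1.81 (SE 0.56), which did not pass (adjusted p = 0.355), and by -0.91 with an adjusted p of 0.03 without male WT mouse 1.

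**Figure D3:**
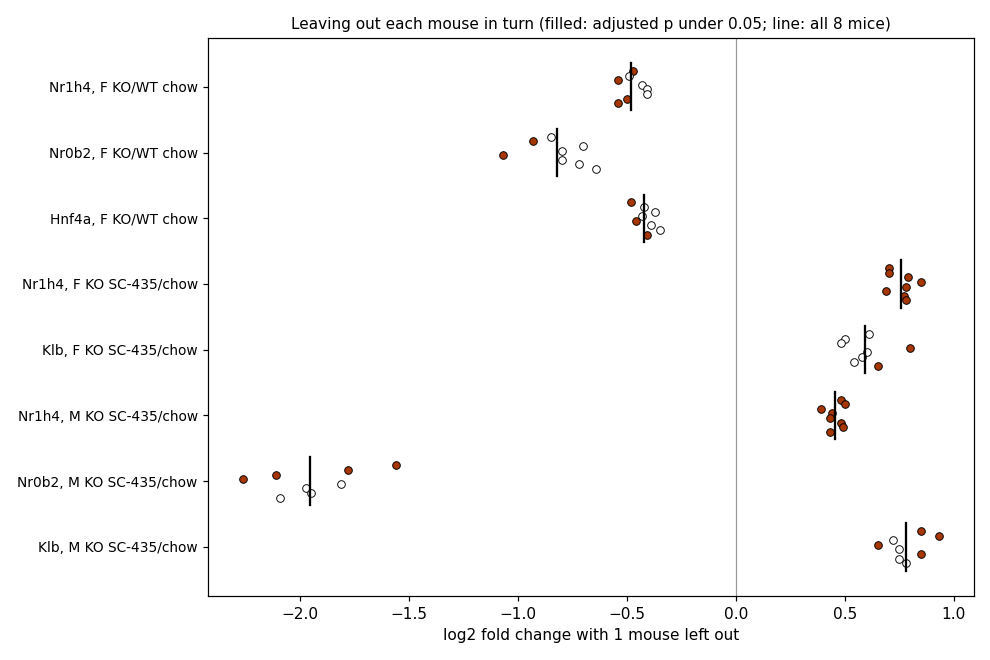
Log2 fold change of each gene that passed in a main comparison, refitted with each of the 8 mice left out in turn (dots; filled where the adjusted p was under 0.05), beside the value with all 8 mice (line). Nr1h4 with SC-435 in KO mice passed in all 8 refits in both sexes, while the other 6 calls passed in 2 to 4 of 8, and no refit changed sign.

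Of the activators that SHP restrains, HNF4A was lower in KO females than in WT females on chow, and LRH-1 passed in no comparison. Hnf4a (chromosome 2, 163506808 to 163572910, plus strand), a regulator of hepatocyte identity, was 726, 835, 907 and 801 CPM in female WT mice on chow and 662, 588, 533 and 619 CPM in female KO mice on chow. Every KO mouse was below every WT mouse, with a log2 fold change of -0.42 (SE 0.11, 95% interval -0.67 to -0.18, adjusted p = 0.0295). The call was lost without WT mouse 2, 3 or 4 (adjusted p 0.0739, 0.0849 and 0.0574) or KO mouse 2 or 3 (0.103 and 0.099), on library totals alone (-0.23, 0.196) and with a replicate block (0.0875). In KO females on SC-435 Hnf4a was 680.3, 607, 641 and 609 CPM, still below the WT females on chow by -0.36 (SE 0.09, adjusted p = 0.021), a call lost without WT mouse 2 or 3 (0.0543 and 0.0564) or SC-435 mouse 2, 3 or 4 (0.0747, 0.0531 and 0.059). The change from KO chow to KO SC-435 was 0.06 (95% interval -0.15 to 0.27). In males Hnf4a overlapped between KO (578 to 808 CPM) and WT mice on chow (669 to 1439 CPM, and to 833 CPM without mouse 1).

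LRH-1 varied little between groups. Nr5a2 (chromosome 1, 136842571 to 136960448, minus strand) had group means from 60.1 to 77.6 CPM, and every pair of neighbours in the order of the groups overlapped. Its log2 fold change between KO and WT females on chow was 0.09 (95% interval -0.16 to 0.35), and between SC-435 and chow in KO females it was -0.11 (-0.28 to 0.07), or -0.26 with an adjusted p of 0.0207 on library totals alone, a scaling that moved the median of all genes from -0.02 to -0.18. In males the same values were 0.06 (-0.69 to 0.80), or -0.19 without male WT mouse 1, and 0.08 (-0.32 to 0.48), much wider on chow, where male WT mouse 1 had 27.2 CPM and the other male WT mice 66.4 to 73.7 CPM.

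Of the FGF15 receptor pair, beta-klotho was higher with SC-435 in KO mice of both sexes and FGFR4 passed nowhere. Klb (chromosome 5, 65348314 to 65384007, plus strand) was 39.2, 31.0, 29.0 and 53.7 CPM in female KO mice on chow and 57.1, 59.9, 64.1 and 51.2 CPM in female KO mice on SC-435. Only chow mouse 4 reached the SC-435 range. This was a log2 fold change of 0.59 (SE 0.17, 95% interval 0.21 to 0.97, adjusted p = 0.0398), or 1.51-fold higher. It was lost without chow mouse 1, 2 or 3 (adjusted p 0.0719, 0.109 and 0.0839) or SC-435 mouse 1, 2 or 3 (0.0821, 0.0997 and 0.105), on library totals alone (0.44, 0.0615) and with a replicate block (0.0719), and was 0.80 (adjusted p = 0.000991) without chow mouse 4. On chow, KO females overlapped with WT females (34.1 to 55.1 CPM) and the log2 fold change was -0.20 (SE 0.20, adjusted p = 0.541). WT females on SC-435 (43.8 to 54.1 CPM) lay within that WT range. Against WT females on chow, the KO females on SC-435 differed by 0.40 (SE 0.13), which did not pass (adjusted p = 0.0625). It passed with DESeq2 (0.038), with voom (0.0195), with all genes kept (0.0489) and without WT mouse 4 (0.0134).

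Male KO mice on chow held the lowest Klb of the 8 groups, at 29.5, 33.7, 22.2 and 18.0 CPM. Male KO mice on SC-435 had 48.4, 38.3, 48.4 and 45.9 CPM. The groups did not overlap, and the log2 fold change was 0.78 (SE 0.18, 95% interval 0.38 to 1.18, adjusted p = 0.0198), or 1.72-fold higher. The 8 other settings all kept this call, which was lost without chow mouse 3 (adjusted p = 0.0599) or SC-435 mouse 1, 3 or 4 (0.0607, 0.0538 and 0.06). Against the male WT mice on chow (34.2, 51.7, 44.0 and 43.3 CPM) all KO males were lower, with a log2 fold change of -0.71 (SE 0.22) that did not pass (adjusted p = 0.178). Without male WT mouse 1 it was -0.81 with an adjusted p of 0.0441, and it passed with DESeq2 (0.0443), in the fit of 4 male groups (0.0365) and with voom (0.00941). WT males on SC-435 had 26.6 to 46.2 CPM of Klb and overlapped with WT males on chow.

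FGFR4, the receptor kinase, stayed within a narrow range. Fgfr4 (chromosome 13, 55152640 to 55168759, plus strand) had group means from 60.0 CPM in male KO mice on chow to 81.3 CPM in male WT mice on chow, and the latter was 63.4 ± 6.04 CPM (n = 3) without mouse 1, which had 135 CPM. Its log2 fold change was -0.04 (95% interval -0.30 to 0.22) between KO and WT females on chow and -0.11 (-0.32 to 0.10) with SC-435 in KO females. In males the values were -0.40 (-1.05 to 0.25), or -0.04 without male WT mouse 1, and 0.02 (-0.26 to 0.29). With 4 mice per group, differences as large as the ends of these intervals remain possible.

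MAFG did not pass in the comparisons made, though it did under some other settings. Mafg (chromosome 11, 120625117 to 120633600, minus strand) had group means from 99.3 to 118 CPM, the narrowest span of the 8 expressed genes. Its exons overlap those of Sirt7 on the same strand, so the split of reads between these genes is uncertain. The log2 fold change was 0.16 (95% interval -0.04 to 0.37) between KO and WT females on chow and -0.02 (-0.21 to 0.18) with SC-435 in KO females. Scaled by library totals alone, the first of these was 0.36 and passed (adjusted p = 0.0402), but that scaling moved the median of all genes in this comparison from -0.02 to 0.17. KO males on SC-435 differed from WT males on chow by -0.19 (95% interval -0.63 to 0.26, adjusted p = 0.856). That difference was -0.42 with voom and passed (0.00545), and was -0.33 without male WT mouse 1 (0.0553).

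TGR5 was detected only in traces. Gpbar1 (chromosome 1, 74278550 to 74279624, plus strand, 1 exon) had 0 to 9 counts per mouse and passed the low-count filter in none of the comparisons, so 8 of 9 genes were tested throughout. Male KO mice on chow had 4, 6, 7 and 9 counts, male WT mice on chow 0, 0, 0 and 2, male KO mice on SC-435 0, 1, 3 and 0, and male WT mice on SC-435 none. All 4 male KO mice on chow were above every mouse of both comparison groups. A count of 0 allows up to 3 counts, which is 0.069 to 0.114 CPM in the shallowest library of each group. The summed counts gave a ratio of 9.42 between KO and WT males on chow (95% interval 2.36 to 81.9, counting error only) and of 0.19 between SC-435 and chow in male KO mice (0.0481 to 0.546). An exact two-sided permutation test over mice gave p = 0.0286 for each, the smallest that 4 against 4 allows, and 0.0571 after adjustment over the 4 comparisons tested. Female KO mice on chow had 1, 7, 1 and 0 counts and female WT mice 0, 1, 1 and 0 (permutation p = 0.629). The part of the cholangiocytes and macrophages described above in these traces was not tested.

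No difference of an effect between the sexes or between the genotypes passed for any of the 8 tested genes in edgeR. The effect of KO on chow differed between the sexes by -0.93 for Nr0b2 (females minus males, 95% interval -2.57 to 0.71, adjusted p = 0.914, and -1.86 with an adjusted p of 0.207 without male WT mouse 1) and by 0.55 for Klb (-0.13 to 1.22, 0.852), and no gene had an unadjusted p under 0.05, beside 0.0235% of all genes that passed. The effect of SC-435 in KO mice differed by 1.15 for Nr0b2 (-0.25 to 2.55, adjusted p = 0.501) and by 0.28 for Nr1h4 (-0.03 to 0.60, 0.448), beside 0.211% of all genes. No gene had an unadjusted p under 0.05 in the second of these either, and DESeq2 called none of the 8 in both. SC-435 raised Nr1h4 more in KO than in WT females by 0.41 (SE 0.15, unadjusted p = 0.0138), which did not pass over all genes (adjusted p = 0.136), beside 2.64% of all genes. The same difference in males was 0.53 for Nr1h4 (SE 0.19, adjusted p = 0.267) and 1.01 for Klb (SE 0.29, adjusted p = 0.165), the only 2 members with an unadjusted p under 0.05, and 0.0906% of all genes passed. Klb passed there with DESeq2. Nr1h4 passed in males without male WT mouse 1 (0.61, adjusted p = 0.0477) and in females without KO mouse 4 on chow (0.48, 0.0431). The percentages are of genes that passed in edgeR. An unadjusted p under 0.05 was reached by 1066 of 17026 genes for sex by KO and 2131 of 17069 for sex by SC-435. For genotype by diet it was reached by 3355 of 16882 in females and 2208 of 16555 in males.

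In the other comparisons of males no member passed either. For KO against WT on chow 0 of 8 passed, beside 1.08% of all genes, with 3 at an unadjusted p under 0.05 and 2 by DESeq2 (Nr1h4 and Klb), and the groups did not overlap for those 3 (Nr1h4, Klb and Rxra), beside 14.7%. For SC-435 against chow in WT males the count was 0 by both tools, with none at an unadjusted p under 0.05, beside 0.0394% of all genes. For KO against WT males on SC-435 it was 0 by both tools with 1 unadjusted (Rxra, -0.31), beside 0.0324% of all genes. For KO on SC-435 against WT on chow it was 0, with 1 unadjusted and 1 by DESeq2 (Nr0b2 in both), beside 0.208% of all genes. Female against male WT mice on chow gave 0 by both tools with none unadjusted, beside 1.49% of all genes. Without male WT mouse 1, Nr0b2 (1.18, adjusted p = 0.0101) and Mafg (-0.33, 0.0441) passed there. Without that mouse 1196 genes passed between KO and WT males on chow, against 172 with it. The percentages are of genes that passed in edgeR. An unadjusted p under 0.05 was reached by 2444 of 15862 genes for KO against WT males on chow. It was reached by 931 of 15211 for SC-435 in WT males and 1366 of 15434 for KO against WT on SC-435. For KO on SC-435 against WT on chow it was 1269 of 15395, and between the sexes 1649 of 15525.

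The genes these regulators act on were read beside them. Cyp7a1, the rate-limiting enzyme of bile acid synthesis, was 8.61 to 107 CPM in female KO mice on chow and 398 to 924 CPM on SC-435, without overlap (log2 fold change 3.45, SE 0.69, adjusted p = 0.00993). In male KO mice it was 25.0 to 61.0 CPM on chow and 324 to 675 CPM on SC-435 (3.83, SE 0.37, adjusted p = 0.000561). Cyp8b1, which sets the share of cholic acid, was 93.4 to 298 CPM in female WT and 2.67 to 67.2 CPM in female KO mice on chow (-3.22, SE 0.84, adjusted p = 0.0287), where Nr0b2 and Hnf4a were also lower. With SC-435 the female KO mice had 591 to 807 CPM of Cyp8b1 (5.0, SE 0.85, adjusted p = 0.00575). In male KO mice Cyp8b1 was 35.1 to 247 CPM on chow and 880 to 1063 CPM on SC-435 (2.97, SE 0.56, adjusted p = 0.011). In WT mice the group means of both genes were also higher on SC-435. On SC-435 Cyp7a1 was 640 to 1280 CPM in WT females (14.3 to 71.0 on chow) and 462 to 709 CPM in WT males (15.2 to 163 on chow). Cyp8b1 was 999 to 1254 CPM in WT females on SC-435, and 745 to 1307 CPM in WT males. The WT males on chow (205 to 1121 CPM) overlapped with these by mouse 1 alone. Without that mouse they had 205 to 424 CPM (295 ± 115, n = 3), below every WT male on SC-435. Both genes passed in WT females and neither in WT males.

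Transport genes under FXR gave different pictures. Abcb11, the bile salt export pump and a direct FXR target, had group means from 760.1 to 901 CPM, and its log2 fold change was -0.02 (SE 0.11, adjusted p = 0.929) between KO and WT females on chow and 0.03 (SE 0.10, adjusted p = 0.831) with SC-435 in male KO mice. Female KO mice on SC-435 had 731 to 802 CPM and overlapped with KO females on chow (769 to 959 CPM). They lay below all WT females on SC-435 (843 to 951 CPM) and on chow (828 to 991 CPM). Slc51b, a subunit of the basolateral bile acid exporter and also an FXR target, was higher in female KO than WT mice on chow (1.16 to 3.87 against 0.0945 to 0.668 CPM, log2 fold change 2.46, SE 0.54, adjusted p = 0.0153). It was lower with SC-435 in KO females (-3.81, SE 0.54, adjusted p = 0.00287) and KO males (-3.21, SE 0.70, adjusted p = 0.0183). These folds rest on low counts per mouse: 4 to 28 in WT females on chow and 48 to 202 in KO females on chow. On SC-435 they were 4 to 13 in KO females and 3 to 8 in KO males, against 20 to 164 in KO males on chow. Fgf15, the ileal hormone, had 1 count in 1 male KO mouse on chow and none in the other livers, and a count of 0 allows up to 3 counts per library.

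**Figure D4:**
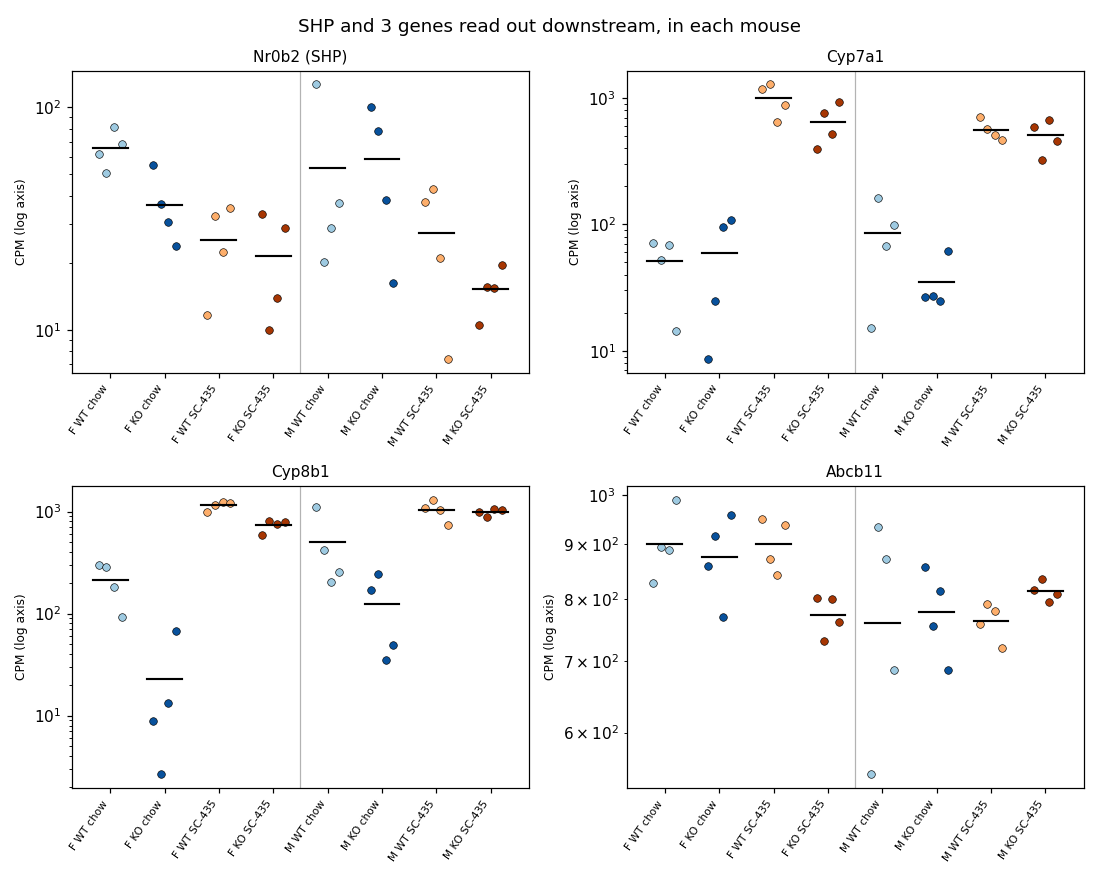
Level of SHP (Nr0b2) and of 3 readout genes in each of 32 mice, in TMM-normalized CPM on log axes, with 1 dot per mouse and a bar at each group mean. The 3 genes are Cyp7a1, Cyp8b1 and Abcb11, the last being a direct FXR target. Cyp7a1 was higher on SC-435 without overlap in both genotypes and sexes. Cyp8b1 was so in all but WT males, where chow mouse 1 alone (1121 CPM) overlapped. Nr0b2 was spread over more than 1 order of magnitude between mice, and Abcb11 stayed between group means of 760.1 and 901 CPM.

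FXR target genes of liver, taken as a list of 29, were counted in the same 4 comparisons. The list includes the readout genes above other than Cyp2c70. It mixes direct targets such as Abcb11 with genes that the feedback loops lower, such as Cyp7a1 and Cyp8b1. Its counts and medians therefore give no direction of FXR activity. In female KO against WT mice on chow 2 of 27 tested were higher and 7 lower, beside 14.9% of all genes that passed and 5.05% that were lower (median log2 fold change -0.21, beside -0.02 over all genes). The 3 with the smallest adjusted p were Cyp27a1, the sterol 27-hydroxylase of the alternative synthesis pathway (-0.71, SE 0.12), the aldo-keto reductase Akr1b7 (2.01, SE 0.41) and Slc51b. In males 0 of 26 passed in edgeR, beside 1.08% of all genes (median -0.47, beside 0.04 over all genes). An unadjusted p under 0.05 was reached by 7 of the 26, beside 2444 of all 15862 genes tested. With SC-435 in KO females 10 of 27 were higher and 3 lower, beside 17.8% of all genes that passed and 8.56% that were higher (median 0.25, beside -0.02), among them Pltp, the phospholipid transfer protein (1.25, SE 0.14), and Cyp27a1 (0.82, SE 0.10). In KO males 6 of 27 were higher and 1 lower, beside 17.2% of all genes (median 0.40, beside -0.03), led by Cyp7a1, Pltp (2.08, SE 0.28) and the epoxide hydrolase Ephx1 (0.48, SE 0.09).

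Genes of FGF receptor signalling passed at shares to be read beside the 14.9% (females) and 1.08% (males) of all genes that passed on chow and the 17.8% and 17.2% with SC-435. Of 24 tested, 2 were higher and none lower between KO and WT in both sexes: Dusp5, a phosphatase of MAP kinases (1.49, SE 0.27 in females and 2.78, SE 0.44 in males), and Egr1, an immediate early transcription factor (1.01, SE 0.30 and 3.38, SE 0.46). The medians were 0.02 in females and 0.01 in males. With SC-435 in KO females 5 were lower and none higher (median -0.09), led by the signalling inhibitors Spred1 (-0.77, SE 0.09) and Spry4 (-1.49, SE 0.25) and by the receptor Fgfr2 (-1.06, SE 0.18). In KO males 9 were lower and 1 higher (median -0.24), led by Fgfr2 (-0.91, SE 0.11), Spred1 (-1.09, SE 0.16) and Dusp5 (-2.53, SE 0.39). These genes are shared with many other growth factor pathways and are expressed in several liver cell types.

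Cofactors that work with SHP and relatives of MAFG are set beside the same shares of all genes, 14.9% and 1.08% on chow and 17.8% and 17.2% with SC-435. Of 22 tested, 1 was higher in KO females on chow (Dnmt3a, a DNA methyltransferase, 0.53, SE 0.11) and none lower (median 0.02), and 0 passed in males, with 0 at an unadjusted p under 0.05 (median 0.01). With SC-435 1 was lower in KO females (Ep300, a histone acetyltransferase, -0.32, SE 0.07, median of the list -0.04) and 3 in KO males (among them Dnmt3a, -0.44, SE 0.07, and the acetyltransferase Crebbp, -0.32, SE 0.09, with a list median of -0.06), and none was higher. Of 17 tested small MAF relatives, partners and targets, 2 were higher and 1 lower in KO females on chow (median 0.04), namely Hmox1, heme oxygenase (0.49, SE 0.11), Mafk (0.42, SE 0.12) and Nfe2l1 (-0.33, SE 0.09). In males 0 of 17 passed, with 3 at an unadjusted p under 0.05 (median 0.09), beside 2444 of all 15862 genes tested. With SC-435 3 were higher and 3 lower in KO females (median 0.14) and 5 higher and 3 lower in KO males (median -0.02), with Nfe2, a partner of small MAF proteins best known in blood cells, among the higher in both (4.09, SE 0.41 and 2.06, SE 0.29).

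For other nuclear receptors and hepatocyte transcription factors the shares of all genes that passed were again 14.9% and 1.08% on chow and 17.8% and 17.2% with SC-435, in females and males. Among the other nuclear receptors of liver, 2 of 29 were higher and 1 lower in KO females on chow (median -0.06), namely Nr4a1 (3.09, SE 0.65), Rarg (0.73, SE 0.15) and the xenobiotic receptor CAR, Nr1i3 (-1.24, SE 0.21). In KO males on chow Esr1 was higher (1.23, SE 0.22) and Pparg lower (-0.95, SE 0.17), 1 each of 28 (median -0.36). With SC-435 4 were higher and 1 lower in KO mice of each sex (medians 0.05 and 0.11), and Pparg, a receptor of lipid storage, was among the higher in both (0.90, SE 0.14 and 1.98, SE 0.12). Of 14 other hepatocyte transcription factors, 1 was higher and 3 lower in KO females on chow (median -0.26), the lower ones being Atf5 (-1.0, SE 0.12), Cebpb (-1.55, SE 0.27) and Tbx3 (-1.06, SE 0.19). In males 0 of these 14 passed, with 3 at an unadjusted p under 0.05 (median -0.46), beside 2444 of all 15862 genes tested. With SC-435 3 were higher and 1 lower in KO females (median 0.05), led by Tbx3 (1.30, SE 0.16), and 2 were higher and 2 lower in KO males (median -0.05), with Cebpb among the higher (0.72, SE 0.18).

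Other receptors that bile acids can act on were few in liver, 5 of 8 being tested. Chrm3, a muscarinic acetylcholine receptor, was higher in KO mice on chow in females (3.65, SE 0.38) and males (3.77, SE 0.49), and lower with SC-435 in both (-1.51, SE 0.30 and -2.47, SE 0.37). In KO females on chow 2 of 5 were higher, the other being S1pr2, a receptor for conjugated bile acids (0.85, SE 0.21), and 1 was lower (Nr1i3, also counted above). With SC-435 1 of 5 was higher (Nr1i3, 0.84, SE 0.19) and 2 lower in KO females (Chrm3 and Fpr1, -0.84, SE 0.24), and 1 was lower in KO males. The list medians were 0.62 and -0.27 in females and 0.25 and -0.28 in males.

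For SHP and beta-klotho, the members whose group means spanned more than 2-fold, the genes with the closest pattern were sought among 11734 protein-coding genes, by the root mean square difference of centred log2 CPM over the 8 group means. Nearest to Nr0b2 were Spry4 (0.308), an inhibitor of receptor kinase signalling, Slc17a9 (0.338), a vesicular nucleotide transporter, and Syvn1 (0.365), a ubiquitin ligase of the endoplasmic reticulum. Klb had closer neighbours in Slc6a12 (0.0819), a betaine transporter, Ces1g (0.0907), a carboxylesterase, and Tmem184a (0.0996). These distances rest on 8 means each, and male WT mouse 1 enters 1 of them.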

How the data were processed

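RNA-seq of whole liver from 32 mice was read from 1 table of 54532 genes, of which 32120 had any count. Raw counts per gene were deposited, made by the authors on mouse build mm10; the submitters' processing notes name HISAT2 2.0.5, featureCounts 1.5.0-p3, DESeq2 1.20.0 and GATK 4.1.1.0, and the strand setting of the counting is not given in the sources used here. The table also holds 32 FPKM columns and 35 columns of the authors' own comparisons (fold changes, p-values and group means), which were not used.

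Groups were taken from the labels. Each comparison was fitted on its own libraries with edgeR 4.0.16 in R 4.3.3 (filterByExpr, TMM, quasi-likelihood test), and p-values were adjusted by Benjamini-Hochberg across every gene tested. A gene passed at an adjusted p under 0.05, and the fold threshold of the study is a log2 fold change beyond 1. Differences between sexes or genotypes were interaction terms over 4 groups. Levels are CPM with 1 TMM scaling over all 32 libraries, as mean ± SD, so they can differ slightly from the fitted fold changes. Standard errors and 95% intervals come from the same fits. Gpbar1, below the filter, was compared by exact permutation tests over mice and by exact intervals on summed counts. Replicates were separate libraries: the lowest chi-square per gene between 2 of a group was 20.3 over 48 pairs.

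Replicate numbers come from the sample titles, and no label says that a number links mice. Deviations of same-numbered mice correlated between -0.23 and 0.459 over 11 comparisons, and every pair was over 0.1 only for male KO against WT mice on chow.

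Other settings were library totals alone, median-of-ratios size factors, all genes with any count kept, only genes averaging 50 counts or more kept, DESeq2 1.42.0, voom with a quality weight per library (limma 3.58.1), 1 fit for all 4 groups of a sex, a replicate block, and each library left out in turn. Simulated data were used first for KO against WT on chow in each sex, with edgeR, DESeq2, voom, the replicate block and median-of-ratios. For sex by KO and for genotype by diet in females, edgeR alone was simulated. Other settings and comparisons were not simulated. Named were all 9 genes, 6 readout genes including Cyp2c70, up to 3 passing genes of smallest adjusted p per pathway list and main comparison, and for genes whose group means spanned more than 1 on the log2 scale the 3 genes nearest in pattern. Some list genes that this rule names are not reported here. The members and lists were chosen with earlier results of these data known. Promoter windows are from RefSeq (GRCm38.p6), where all 9 genes matched, and gene positions are on GRCm38, which is mm10.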

Additional observations from a re-analysis of the deposited data

Results flagged for a closer look

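In 8 of 64 groups of 4 mice examined over the 8 expressed genes, 1 mouse lay farther from its group than Dixon's 95% critical value for the gap divided by the range, and chance alone gives about 1 in 20. Male WT mouse 1 on chow was the highest for Rxra (0.865) and the lowest for Nr5a2 (0.895), and this is the library that stood apart from its group over all genes. Rxra also had a single low mouse in the male KO group on chow (mouse 4, 0.836) and in the female WT group on chow (mouse 1, 0.836). Fgfr4 was set apart upward in female KO mouse 1 on chow (0.876) and downward in male KO mouse 2 on SC-435 (0.865). Nr1h4 was highest in female KO mouse 2 on SC-435 (0.899), and Mafg in male KO mouse 3 on SC-435 (0.835).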

How the results depend on the processing

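Over all 120 pairs of a tested gene and a comparison, 36 changed sign under some setting or without some mouse, and none of the 12 that passed was among them. For the 49 pairs that passed under any setting or are given above, 697 of 820 values kept their direction and side of the threshold, 59 no longer passed, 34 newly passed and 30 changed sign. On library totals alone Fgfr4 turned to 0.16 for KO against WT females on chow and -0.17 for SC-435 in KO males, Hnf4a to -0.10 for SC-435 in KO females and Nr5a2 to -0.09 for SC-435 in KO males. With only genes averaging 50 counts or more, the same Fgfr4 values were 0.01 and -0.00. With voom, Nr5a2 was -0.07 for KO against WT males on chow and -0.06 for SC-435 in KO males, Fgfr4 was -0.00 for SC-435 in KO males and Nr0b2 0.19 for SC-435 in WT males. Leaving out 1 mouse gave -0.23 to 1.05 for Nr0b2 and -0.19 to 0.18 for Nr5a2 (KO against WT males on chow), -0.00 to 1.18 for Nr0b2 (females against males), -0.12 to 0.03 for Fgfr4 (KO against WT females on chow), -0.06 to 0.03 for Mafg (SC-435 in KO females), and -0.06 to 0.15 for Fgfr4 and -0.06 to 0.20 for Nr5a2 (SC-435 in KO males). The cause was not tested. For KO against WT females on chow, the count of passing genes went from 3 to 1 on library totals alone, and that 1 was Mafg, so that none of the 3 reported calls was kept. For SC-435 in KO females it stayed at 2 on that scaling, with Nr5a2 in place of Klb. For SC-435 against chow in WT females it went from 1 to 2 with DESeq2 and to 2 with voom. For KO females on SC-435 against WT females on chow it went from 2 to 4 with DESeq2 and to 5 with voom. For KO against WT males on chow it went from 0 to 2 with DESeq2, 3 in the fit of 4 groups and 4 with voom. For SC-435 in KO males it went from 3 to 1 in the fit of 4 groups. For KO males on SC-435 against WT males on chow it went from 0 to 1 with DESeq2 and 2 with voom, and for the genotype by diet term in males from 0 to 1 with DESeq2.

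With a replicate block, the count was 1 for KO against WT females on chow, 1 for SC-435 in KO females, 0 for KO against WT females on SC-435 and 1 for KO females on SC-435 against WT chow. The numbers are not known to pair mice. For KO against WT males on chow, where 8 of 8 mice correlated best with their own number, the block left the count at 0.

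Leaving out 1 mouse gave 0 to 2 passing genes for KO against WT females on chow, 1 to 2 for SC-435 in KO females, 0 to 1 for SC-435 in WT females, 0 to 2 for KO against WT females on SC-435 and 1 to 3 for KO females on SC-435 against WT chow. In males it gave 0 to 2 for KO against WT on chow, 1 to 3 for SC-435 in KO mice and 0 to 1 for KO on SC-435 against WT chow. It gave 0 to 2 between sexes in WT mice and 0 to 1 for the genotype by diet term in females and in males. Library totals alone moved the median of all genes to 0.17, -0.18, 0.29 and -0.23 in the 4 main comparisons. With 4 mice per group, any difference inside an interval given remains possible for that gene and comparison.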
